A study of Arabidopsis thaliana with 4 samples.

Results

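The upper flank of horizontally placed inflorescence stems was compared between 30 and 10 min of gravistimulation in Arabidopsis thaliana, ecotype Col. The labels give 3 days of cold at 4 °C and 10 days on plates for the plants of all 4 arrays. The plants had been grown at 23 °C under constant light, and stems of 4 to 8 cm were laid flat at 23 °C in dim light without a fixed direction. The top 5 mm was removed, and the next 3 cm was split by hand along its length, so that each segment gave an upper and a lower part. RNA from both sides at one time was labelled, one with Cy3 and one with Cy5, and read on a single Agilent array. Of the 8 channels on the 4 arrays, 4 carried the upper flank, 2 at each time. These were chosen by the labels: the Cy3 channel of replicate 1 and the Cy5 channel of replicate 2. The other 4 channels carried the lower flank, and their values are given only beside those of the upper flank. No mutation or transgene is named in the labels, every stem was gravistimulated, no upright stem was part of the comparison, and how many stems were pooled is not given in the labels. Time on the side, time in dim light and time of harvest cannot be told apart in a change from 10 to 30 min.

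A stem laid on its side bends upward because its lower flank elongates more than its upper flank. Starch-filled plastids settle in the endodermal cells, PIN carriers redirect the hormone auxin, and auxin becomes more abundant in the lower flank. Auxin acts by having Aux/IAA repressor proteins degraded, which frees ARF transcription factors, and their rapid targets include the Aux/IAA genes themselves, the SAUR genes, which promote cell expansion, and the GH3 genes, which conjugate auxin. The upper flank is the side from which auxin is drawn away. The comparison asks which transcripts of that side changed between the 2 times.

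After background correction, loess within arrays and scaling between arrays, 17962 genes were tested, 17550 of them with a value in all 4 upper channels and 412 with 1 or more left out as outlier spots. Between 87.8 and 90.73% of gene probes were well above background in each upper channel, and 1 to 10 were saturated. The 2 channels of one time differed with an SD over genes of 0.132 (log2) at 10 min and 0.219 at 30 min, and the 30 against 10 min differences had an SD of 0.322 in Cy3 and 0.231 in Cy5. The 30 min arrays thus stood further from each other than the 10 min arrays. The median of all genes moved by 0.04 between the times (0.07 in Cy3, 0.00472 in Cy5). Both arrays of a time are called biological replicates in the labels, but the labelling protocol also has each cRNA labelled with both dyes, so p-values here measure the spread between these channels, which may be technical. All changes below are differences of scaled log2 signals, 30 minus 10 min, ± the standard error of the limma fit with n = 2 channels per time, and a gene was called at a Benjamini-Hochberg adjusted p under 0.05 over all genes tested. Levels are given per channel in the order 10 min replicate 1 and 2, then 30 min replicate 1 and 2. Fewer cells of a kind and less RNA per cell cannot be told apart in such tissue.

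Between 10 and 30 min the largest changes in the upper flank were falls. Transcripts of GRP3S, a short glycine-rich protein, of the dehydration-responsive gene ERD7, of the dark-inducible gene SEN1 and of BT2, a scaffold protein with BTB and TAZ domains that responds to sugar and nitrate, fell 5.36- to 7.07-fold at a normexp offset of 50, the setting that all values below use unless another is named. The order of the largest falls depends on it: with the processed signals MIOX4 (-3.73) and FSD1 (-3.45) exceeded GRP3S (-3.25). The largest rise, of AT5G37970, was 2.98-fold. limma called 717 of 17962 genes (3.99%), 308 higher (1.71%) and 409 lower (2.28%) at 30 min. Among them 18 were at least 2-fold higher and 79 at least 2-fold lower. All 706 calls with a value in all 4 channels had both 30 min channels on the same side of both 10 min channels. They thus had the same direction in each dye, which a call from so few channels nearly requires. The other 11 calls lacked a value. Of all genes, 25.5% were lower and 37% higher in both dyes. The smallest called change was 0.42 and the median size was 0.63. By limma 3719 of the 17962 genes had an unadjusted p under 0.05, 2285 higher and 1434 lower.

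The number of calls depended on how the spread was estimated. When a term for the replicate number, and with it the dye, was added to the fit as a block, the count was 1539 (8.57%). Of these, 927 genes were higher and 612 lower, and all 717 were among them. Rises thus outnumbered falls there, as they did without 30 min replicate 2 or without 10 min replicate 2, unlike among the 717. The adjusted p-values of the fit with the block followed the size of the change and hardly a gene's own spread. PIN7 (-0.46 ± 0.14) and LHCB2.2 (-0.46 ± 0.10) had 0.01586 and 0.01554 with it by limma. A call with the block is therefore no separate support for a gene. Without 30 min replicate 2 the count was 4856, and without 10 min replicate 1 it was 311, of which 301 were among the 717. In a count without a test, 499 of the 17550 genes with all values (2.84%) were at least 1.5-fold apart with both channels of one time above both of the other, 232 higher and 267 lower. The change in Cy3 and the change in Cy5 correlated at 0.570 over genes, which share their 4 arrays and are not independent replicates.

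**Figure D1:**
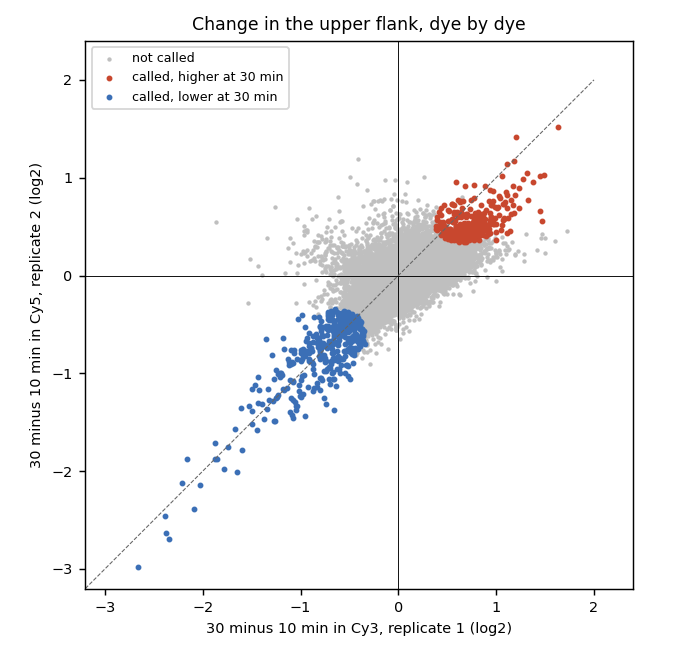
Change of each gene in the upper flank from 10 to 30 min (log2) in Cy3, replicate 1, on the x axis and in Cy5, replicate 2, on the y axis; red and blue points are genes called higher and lower, grey points were not called, and the dashed line marks equal change. The falls reach -2.82 on average over both dyes and the rises 1.57. Over all genes, called ones included, the spread is wider along Cy3 (SD 0.322) than along Cy5 (SD 0.231).

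Among the 12 largest falls were genes of sugar limitation and of dehydration. GRP3S stood at 10.50 and 10.62 at 10 min and at 7.84 and 7.64 at 30 min (-2.82 ± 0.11, adjusted p = 7.787e-05 by limma). ERD7 fell from 12.07 and 12.05 to 9.72 and 9.35 (-2.52 ± 0.13). SEN1 fell from 10.24 and 10.31 to 7.87 and 7.68 (-2.51 ± 0.10). For each of these genes the gap between the times was far wider than the gap between the channels of either time. Their choice as the largest called falls nearly required this. BT2 fell from 11.19 and 11.28 to 8.80 and 8.82 (-2.42 ± 0.09, adjusted p = 7.787e-05 by limma). AT2G20670, which has no symbol, fell from 12.74 and 12.77 to 10.65 and 10.39.

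Metabolic enzymes made up most of the rest. FSD1, an iron superoxide dismutase, fell from 8.48 and 8.46 to 6.28 and 6.34 (-2.17 ± 0.09). MIOX4, a myo-inositol oxygenase, fell from 8.26 and 8.35 to 6.24 and 6.22 (-2.08 ± 0.10). Both remained well above background at 30 min, but their size moved with the background correction, to -2.84 for FSD1 and -2.81 for MIOX4 with an offset of 16 and to -3.45 and -3.73 with the processed signals. ASN1, the dark-inducible asparagine synthetase, fell from 9.81 and 9.74 to 7.94 and 7.87 (-1.87 ± 0.10). AtIPCS1, an inositol phosphorylceramide synthase of sphingolipid metabolism, fell by 1.87 as well. KMD1, an F-box protein that targets cytokinin response regulators and phenylalanine ammonia-lyase for degradation, fell from 9.83 and 9.85 to 7.67 and 7.97 (-2.02 ± 0.12). AT2G23120 (-1.88) and the dehydrin gene LTI30 (-1.83) completed the 12. All of these fell in both dyes, as the rule for naming them required.

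The rises were smaller, and several belonged to sulfur and glucosinolate metabolism. AT5G37970 rose from 8.86 and 8.92 to 10.50 and 10.44 (1.57 ± 0.09, adjusted p = 2.797e-04 by limma). APS4, an ATP sulfurylase that activates sulfate, rose from 8.71 and 8.69 to 9.91 and 10.10 (1.31 ± 0.11). NIMIN1, a protein that binds the salicylate regulator NPR1, rose from 8.80 and 8.71 to 10.29 and 9.74 (1.26 ± 0.17). The 30 min channels of NIMIN1 lay further apart than those of the genes above, with replicate 1 the higher. BCAT4, which starts the chain elongation of methionine for glucosinolates, rose from 8.70 and 8.67 to 10.15 and 9.69 (1.23 ± 0.15). FMO GS-OX3, which oxygenates methionine-derived glucosinolates, rose from 7.57 and 7.62 to 8.68 and 8.76 (1.13 ± 0.10). GASA6, a gibberellin-regulated peptide gene, rose from 8.55 and 8.65 to 9.83 and 9.63 (1.13 ± 0.11). The lipid transfer protein gene LTP4 rose by 1.17 ± 0.13. AT1G78170 (1.18), AT5G56840 (1.18), AT4G21870 (1.06), AT3G53310 (1.06) and AT1G78020 (1.05) have no symbol. Of these 12 genes AT3G53310 had the widest gap at 10 min (9.97 and 10.54) and was not called without 30 min replicate 1 (adjusted p = 0.09877 by limma).

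**Figure D2:**
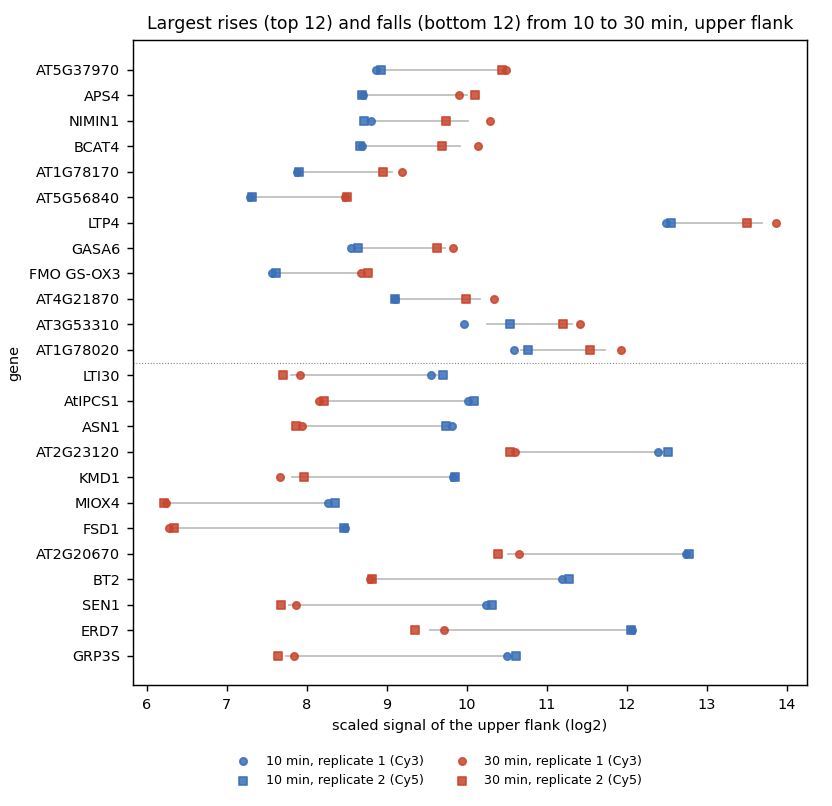
Scaled log2 signal of the upper flank in each of the 4 channels for the 12 largest called rises (top) and the 12 largest called falls (bottom); circles are replicate 1 (Cy3), squares replicate 2 (Cy5), blue 10 min, red 30 min, and grey lines join the means of the times. Red and blue symbols do not overlap for any of these genes, which their selection nearly required. The red symbols are the more scattered, as for NIMIN1 (10.29 and 9.74).

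Auxin-induced genes of the upper flank mostly fell or were not called. In the SAUR family 17 of 60 measured members fell (28.3%, against 2.28% of all genes) and 1 rose, and the median of the 60 was -0.21, against 0.04 over all genes. In both dyes 41 of the 60 (68.3%) were lower at 30 min, against 25.5% of all genes. SAUR63 fell from 9.60 and 9.55 to 8.41 and 8.54 (-1.10 ± 0.10, adjusted p = 0.001616 by limma). SAUR65 fell from 8.39 and 8.48 to 7.52 and 7.30 (-1.03 ± 0.11). SAUR66 fell from 9.94 and 9.92 to 9.08 and 8.78 (-1.01 ± 0.12), and SAUR64 by 0.95 ± 0.10. At each of these genes every 30 min channel was below every 10 min channel, which a call nearly requires. The gene that rose was AT1G29490, a neighbour of these on chromosome 1 (0.53 ± 0.11), named after its value was seen.

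Many SAUR genes lie side by side, and 16 of the 18 SAUR calls came from groups of neighbours, grouped here after the values were seen. The chromosome 1 group from AT1G29430 to AT1G29510 had 7 measured members, of which 5 fell. In the chromosome 5 group, SAUR19 to SAUR24, all 6 measured members fell, by 0.62 to 0.93. The 3 on chromosome 4, SAUR14, SAUR15 and SAUR16, fell by 0.72 to 0.82. SAUR29 on chromosome 3 was the one call among 4 measured neighbours (-0.89). Outside these groups 2 of 40 fell, SAUR36 (-0.89) and SAUR50 (-0.82), beside 2.28% of all genes called lower. Some neighbouring SAUR genes are near-identical in sequence and their probes may share signal, so members of a group are not separate observations.

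Among the Aux/IAA repressor genes a few fell and the others were not called. Of 24 measured, limma called 5 lower (20.8%, against 2.28% of all genes) and 0 higher, in the main fit and with the block. By limma 1 was higher at an unadjusted p under 0.05, against 2285 of all 17962 genes. Without 30 min replicate 2 some members were called higher, so the absence of called rises depended on the channels used. IAA1 fell from 9.52 and 9.47 to 8.25 and 8.18 (-1.28 ± 0.09, adjusted p = 7.443e-04 by limma). IAA3, also named SHY2, fell from 9.93 and 10.05 to 8.69 and 8.81 (-1.24 ± 0.10). IAA2 fell from 9.59 and 9.70 to 8.59 and 8.47 (-1.12 ± 0.10). IAA4 (-0.79 ± 0.09) and IAA26 (-0.58 ± 0.11), the latter outside the rule for named genes, were the other calls. The median of the 24 was -0.08. IAA5 stood at 7.58 and 7.63 at 10 min and at 7.66 and 7.27 at 30 min (-0.14 ± 0.14, adjusted p = 0.5834 by limma), so its channels overlapped.

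Other early auxin-induced genes gave 3 falls among 17, beside 2.28% of all genes called lower. HAT2, a homeodomain-leucine zipper factor, fell from 8.64 and 8.69 to 8.14 and 7.95 (-0.62 ± 0.10). The auxin up-regulated F-box gene AUF1 fell from 9.52 and 9.49 to 9.04 and 8.75 (-0.61 ± 0.12). GH3.6, an auxin-conjugating enzyme, fell by 0.48 ± 0.10 with an adjusted p of 0.04995 by limma, and each of the 3 lost its call without 10 min replicate 1, as did HAT2 and GH3.6 without 10 min replicate 2. Among 25 genes of auxin transport and perception limma called 0, against 3.99% of all genes, and 1 in each direction with the block. By limma 8 of the 25 had an unadjusted p under 0.05, 4 in each direction, against 3719 of all 17962 genes. Among 9 genes of gravity sensing limma called 0 in either fit (0 at an unadjusted p under 0.05). The carrier gene PIN7 stood at 10.19 and 10.14 and at 9.50 and 9.90 (-0.46 ± 0.14, adjusted p = 0.1159 by limma). SGR5, needed for gravitropism of stems, differed by -0.22 ± 0.10, and SCR, which specifies the endodermis, by 0.12 ± 0.12.

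Each upper channel shared its array with a lower channel, so the difference between the 2 flanks' changes could be tested within arrays. The change differed at 23 of 17962 genes (0.128%), with the upper flank's change the lower one at 19 and the higher one at 4. Of the 19, 14 fell in the upper flank, 6 of them with a call in the opposite direction in the lower flank and 7 without a call there. Another 5 were not called in the upper flank and rose in the lower. SAUR19 fell in the upper flank from 8.85 and 8.84 to 8.30 and 8.07 (-0.66 ± 0.11) and rose in the lower flank by 0.60, a difference of -1.26 ± 0.05 (adjusted p = 0.01181 by limma). SAUR22 went from 10.64 and 10.66 to 10.04 and 9.66 in the upper flank (-0.80), against 0.43 in the lower. Opposite calls were also found for SAUR21, SAUR23, SAUR24 and HAT2 (-0.62 in the upper, 0.56 in the lower flank).

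A second kind of gene fell in the upper flank while the lower flank's change did not pass the test. SAUR63 changed by -1.10 in the upper and -0.16 in the lower flank (difference -0.94 ± 0.07, adjusted p = 0.02743 by limma). SAUR20 (-0.93 and 0.19), SAUR66, IAA3, AUF1, the membrane-associated kinase regulator gene MAKR6 and ARR7 were of this kind. ARR7, a cytokinin-induced response regulator, went from 9.56 and 9.47 to 8.35 and 8.42 in the upper flank (-1.13 ± 0.10) and by -0.37 in the lower. For IAA1 the upper fall of -1.28 stood beside -0.10 in the lower flank, but the difference did not pass the test (adjusted p = 0.05784). AT1G67900 fell in both flanks, by 1.18 in the upper and by 0.36 in the lower.

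The other 5 of the 19 rose in the lower flank and missed the threshold in the upper, which does not show that the upper level stayed the same. IAA5, not called in the upper flank, rose in the lower by 2.03 (difference -2.17 ± 0.05, adjusted p = 0.003406 by limma). AT5G66580 changed by -0.40 in the upper and 1.34 in the lower flank, and AT5G02760 by -0.52 and 0.69. With the replicate block, whose p-values follow the size of the change, both upper changes were called (adjusted p = 0.04508 and 0.00474 by limma). SAUR25 and IAA6 had upper values of -0.32 and 0.08.

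At 4 genes the upper flank's change was the higher one. AT1G78170 went from 7.88 and 7.90 to 9.19 and 8.95 in the upper flank, against -0.01 in the lower (difference 1.19 ± 0.05, adjusted p = 0.01181 by limma). BT2 fell in both flanks, less in the upper (-2.42) than in the lower (-3.36). NIA1, a nitrate reductase gene, stood at 7.35 and 7.33 and at 7.76 and 7.69 in the upper flank (0.39 ± 0.09, adjusted p = 0.06751) and changed by -0.31 in the lower, and AT1G79160 differed likewise (0.51 and -0.35). None of the 4 belongs to the auxin lists.

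These 23 calls rest on the loess normalization within arrays: limma called 0 when the ratios of an array were only centred on the median (149 genes at an unadjusted p under 0.05, against 2326 with loess), although all 23 kept their direction. The deposited processed signals gave 13 genes with the lower and 5 with the higher change in the upper flank. With the replicate block 6925 genes were called (38.6%), with about as many in each direction (3452 and 3473). With any 1 array left out more genes were called, all 23 included in each fit. That the 23 stayed called was nearly fixed in advance. They were chosen from the same arrays, and 1 time then had a single array. The split then turned: in each of these fits more genes had the higher than the lower change in the upper flank.

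**Figure D3:**
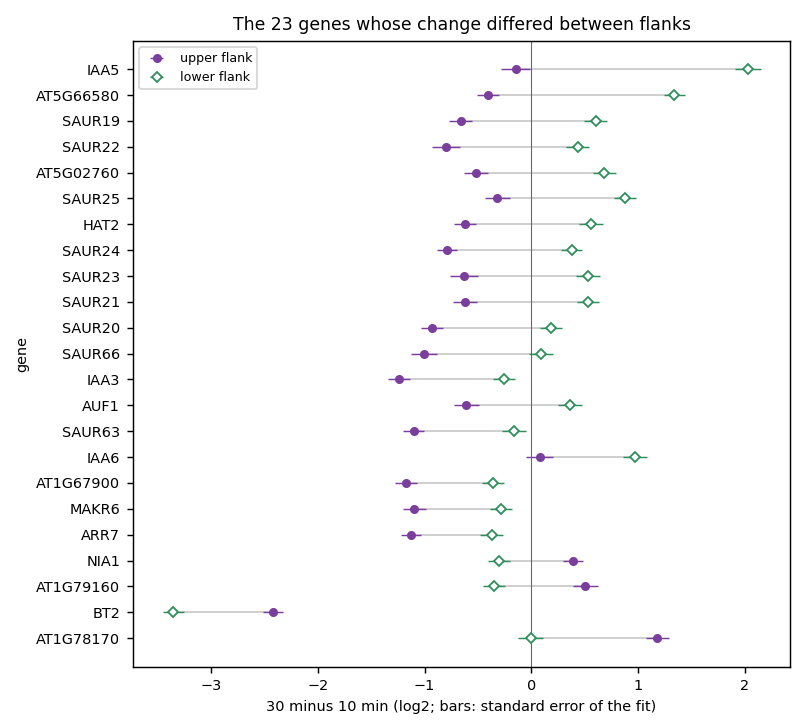
Change from 10 to 30 min (log2, bars are the standard error of the fit with 2 channels per time) in the upper flank (filled circles) and lower flank (open diamonds) for the 23 genes whose change differed between the flanks. SAUR19 to SAUR24 and HAT2 lie left of 0 in the upper and right of 0 in the lower flank, IAA5 is near 0 in the upper (-0.14) and at 2.03 in the lower, and BT2 is far left in both.

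Most of the change in the upper flank was found in the lower flank too, where 1844 genes were called (10.3%), 994 higher and 850 lower. Of the 717 upper-flank calls, 613 were called the same way in the lower flank, 7 the opposite way and 97 were not called there. The flanks share arrays, spots and scaling, so the lower flank is no independent repeat.

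Genes of sugar limitation and darkness had the largest share of calls among the lists plotted. All lists were drawn up with earlier results of these data known, so their shares may partly follow from that choice. Of 17 measured, limma called 9 lower and 0 higher (2 higher at an unadjusted p under 0.05, 1 with the block), a share of 52.9% against 3.99% of all genes, and the median was -0.55. Beside SEN1 and ASN1, KMD4, another F-box gene of the KMD1 family, fell from 11.25 and 11.34 to 10.19 and 10.05 (-1.17 ± 0.10). TPS8, of the trehalose-phosphate synthase family, fell from 9.67 and 9.49 to 8.58 and 8.73 (-0.93 ± 0.11). All 9 were also lower in the lower flank, where 11 of the 17 were called lower.

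Genes of abscisic acid and dehydration gave 9 falls and 0 rises among 28 in limma. Of the list 32.1% fell, against 2.28% of all genes. With the block 0 were called higher, but without 30 min replicate 2 some were. By limma 4 were higher at an unadjusted p under 0.05, against 2285 of all 17962 genes. RD29A fell from 10.39 and 10.28 to 8.51 and 8.57 (-1.79 ± 0.10). The dehydrin gene ERD10 fell from 13.33 and 13.27 to 11.58 and 11.52 (-1.75 ± 0.09), beside ERD7 and LTI30. The other 5 calls, among them 3 further cold- and dehydration-induced genes (COR15B, COR47 and KIN2), fell by 0.43 to 0.99. The median of the 28 was -0.07.

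Of 17 nitrate genes, 3 fell and 1 rose (23.5% called, against 3.99% of all genes). The nitrate-induced repressors LBD39 and LBD37 fell, LBD39 from 8.56 and 8.35 to 7.45 and 7.29 (-1.09 ± 0.11) and LBD37 by 0.65 ± 0.09. The nitrate transporter and sensor gene NRT1.1 rose from 8.13 and 8.14 to 9.21 and 8.87 (0.91 ± 0.13). The list thus moved both ways, with a median of 0.19 and 4 calls in each direction with the block. LBD37 was not called without 10 min replicate 1 (adjusted p = 0.05566 by limma).

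In the circadian clock 8 of 23 measured genes fell and 1 rose (39.1% called, against 3.99% of all genes), with a median of -0.31. LUX, of the evening complex, fell from 8.22 and 8.29 to 7.22 and 7.22 (-1.03 ± 0.09). RVE1, which links the clock to auxin synthesis, fell from 10.19 and 10.15 to 9.09 and 9.25 (-0.999 ± 0.10). COR27, a cold-induced clock component, fell from 8.82 and 9.08 to 8.13 and 7.97 (-0.91 ± 0.12), and PRR5, a repressor of the morning genes, by 0.85 ± 0.09. The morning genes themselves missed the threshold. CCA1 stood at 8.44 and 8.44 and at 8.24 and 8.22 (-0.21 ± 0.09). LHY stood at 9.19 and 9.18 and at 9.64 and 9.57 (0.42 ± 0.09, adjusted p = 0.05411 by limma). With the replicate block, whose p-values follow the size of the change, LHY was called (adjusted p = 0.03453 by limma). The time of day of the 2 harvests is not given in the labels, and its part in these values was not tested.

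Among 25 genes of light signalling 4 rose and 4 fell (32% called, against 3.99% of all genes). The growth-promoting factor PIF5 fell from 8.04 and 8.14 to 7.31 and 7.19 (-0.84 ± 0.10). PAR1, an inhibitor of shade responses, fell by 0.83 ± 0.10 and PKS4, a phytochrome and phototropin signalling protein, by 0.79 ± 0.11. ELIP1, a light-stress protein, rose from 7.83 and 7.98 to 8.82 and 8.57 (0.79 ± 0.12). The other rises were ELIP2 (0.68) and the flavonoid enzyme genes CHS (0.76) and F3H (0.69), and the other fall was PIF4 (-0.75), these 4 outside the rule for named genes.

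Of 25 genes of photosynthetic tissue 2 fell and 1 rose (12% called, against 3.99% of all genes). The light-harvesting gene LHCB1.4 fell from 14.26 and 14.54 to 13.60 and 13.17 (-1.02 ± 0.16), while the Rubisco small subunit gene RBCS1B rose from 13.95 and 14.04 to 14.94 and 14.74 (0.85 ± 0.11). LHCB2.2 fell by 0.46 ± 0.10 and lost its call in 3 of the 4 fits that left out a channel, those without 10 min replicate 1, 10 min replicate 2 or 30 min replicate 1. Both gene families hold near-identical copies whose probes may share signal. In both dyes 14 of the 25 were lower at 30 min (56%, against 25.5% of all genes).

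Touch and rapid stress genes gave 3 rises and 3 falls among 30 (20% called, against 3.99% of all genes). The calmodulin-like gene TCH3 fell from 11.31 and 11.33 to 10.39 and 10.20 (-1.03 ± 0.10), and TCH4, a xyloglucan enzyme, from 9.44 and 9.51 to 8.53 and 8.63 (-0.89 ± 0.10). The calmodulin-like gene TCH2 rose from 8.90 and 9.10 to 9.77 and 9.65 (0.71 ± 0.11). ZAT6, a zinc finger factor, rose from 10.61 and 10.91 to 11.72 and 11.34 (0.77 ± 0.15). TCH2 and ZAT6 were not called without 10 min replicate 1, nor ZAT6 without 30 min replicate 1. The touch-named genes thus changed in both directions.

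Jasmonate genes gave 2 rises and 1 fall among 22 (13.6% called, against 3.99% of all genes). VSP1, a vegetative storage protein, rose from 11.30 and 11.45 to 12.37 and 12.01 (0.81 ± 0.13). CYP94B3 rose by 0.59 ± 0.10 and CYP94C1 fell by 0.57 ± 0.10, both enzymes that oxidize jasmonoyl-isoleucine, and neither was called without 10 min replicate 1, nor CYP94C1 without 10 min replicate 2. Among 15 heat shock genes limma called 0, against 3.99% of all genes, and 1 in each direction with the block. By limma 6 of the 15 had an unadjusted p under 0.05, against 3719 of all 17962 genes. The largest values there, 0.45 ± 0.11 for HSP18.2 and -0.41 ± 0.14 for HSFA7A, had adjusted p of 0.07227 and 0.1495.

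Of the lists of growth hormones other than auxin, 6.25% (cytokinin response) to 14.3% (ethylene) were called, that is 1 or 2 genes each, against 3.99% of all genes. Of 20 gibberellin genes 2 rose: GASA6 and the DELLA repressor gene RGL1, which went from 9.69 and 9.83 to 10.84 and 10.45 (0.89 ± 0.14). Of 14 brassinosteroid genes 1 fell, CPD, a biosynthetic enzyme gene (9.41 and 9.34 to 8.64 and 8.65, -0.73 ± 0.09). Of 14 ethylene genes the receptor genes ETR2 (-0.57 ± 0.09) and ERS2 (-0.52 ± 0.11) fell, and neither was called without 10 min replicate 1 or without 10 min replicate 2, nor ERS2 without 30 min replicate 1. ARR7 was the one call among 16 cytokinin response genes. In the wall-loosening list of 52 expansins and xyloglucan enzymes, XTH18 (0.67 ± 0.11) and EXPB3 (0.46 ± 0.10) rose and TCH4 fell, a share of 5.77% beside 3.99% of all genes. XTH18 was not called without 10 min replicate 1, and EXPB3 was not called without 10 min replicate 1, 10 min replicate 2 or 30 min replicate 1.

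**Figure D4:**
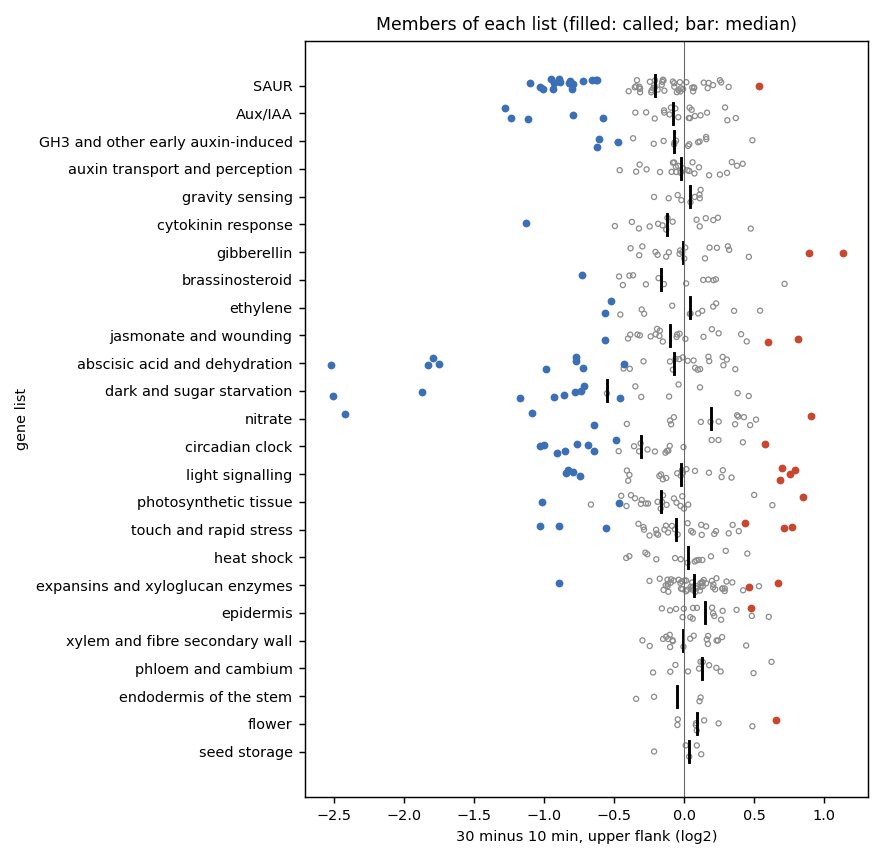
Change from 10 to 30 min in the upper flank (log2) of every measured member of each gene list; filled blue and red points were called lower and higher, open points were not called, and the black bar is the list's median. The lists of dark and sugar starvation (median -0.55), circadian clock (-0.31) and SAUR (-0.21) lie furthest left. None of the 25 genes of auxin transport and perception is filled.

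Markers of the stem's tissues were examined in the same fit. Of 18 epidermal markers (median 0.14) 11 were higher in both dyes (61.1%, against 37% of all genes) and 1 was called (5.56%, against 3.99%), the wax ester gene WSD1 (0.48 ± 0.10, not called without 10 min replicate 1 or 2), and its summed scaled signal was 20050 and 20350 at 10 min and 25330 and 22730 at 30 min. Of 19 markers of xylem and fibres limma called 0, and 1 with the block (median -0.01, sums 6455 and 6089, then 6972 and 6309). By limma 4 of the 19 had an unadjusted p under 0.05, against 3719 of all 17962 genes. The extremes of the 19 were FLA11 (0.44 ± 0.13) and COBL4 (-0.30 ± 0.20). Of 12 markers of phloem and cambium it called 0, with 3 at an unadjusted p under 0.05 and 2 with the block (median 0.12; sums 12080 and 12550, then 15780 and 12850), with PXY (0.62 ± 0.17) and ANT (-0.22 ± 0.10) as extremes. The 4 endodermal markers ranged from -0.34 ± 0.09 for PIN3 to 0.12 for SCR, with 0 called by limma in either fit (1 at an unadjusted p under 0.05). By the count over both dyes, 42.1% of the xylem and fibre markers were higher, as were 50% of phloem and cambium and 25% of endodermal markers. The sums of epidermis and of phloem and cambium were higher in both 30 min channels, and their part in the changes above was not tested.

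Flower and seed genes were checked because the segment lay just below the inflorescence. Of 13 flower genes, 3 were not well above background in any upper channel and 9 were tested. Of the 9, 1 was called (11.1%, against 3.99% of all genes) and 6 were higher in both dyes (66.7%, against 37%). SHP1, a carpel gene, rose from 7.45 and 7.65 to 8.29 and 8.12 (0.66 ± 0.11), and the summed signal of the list was 850.8 and 956.8, then 1145 and 1087. Of 5 seed storage genes limma called 0 in either fit (0 at an unadjusted p under 0.05), and they ranged from -0.22 ± 0.17 (SESA4) to 0.12 ± 0.10 (CRU3). SHP1 lost its call without 10 min replicate 1 or 30 min replicate 1, and whether flower RNA bore on other values was not tested.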

How the data were processed

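Spots were read with Feature Extraction 8.1.1.1 (Agilent), per the file headers. The deposited intensity values used were the mean signal of a spot and its local background median, both uncorrected. The deposited processed intensity values and the authors' series table of log10 ratios served as alternatives. Deposited flags (other values, 0 or 1) marked spots above background, saturated spots and outliers. The deposited log10 ratios were turned to log2. Their direction, lower over upper flank, follows from comparison with the ratios of the processed signals (correlations per array 0.9488 to 1). The medians of the deposited ratios were -0.00244 to 0. The array's genome build is not stated in the labels or headers.

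In limma 3.58.1 (R 4.3.3), background was corrected with normexp (offset 50), arrays were normalized by loess with 1075 control spots at weight 0, and average signals were scaled by quantile. The upper channel was taken back from the average signal and the log ratio. Outlier spots were dropped (120 to 451 per array). Of 21500 probes 20269 named 1 locus, giving 20219 genes, of which 20137 were in the RefSeq table (TAIR10.1) that supplied symbols. Genes had to be well above background in both upper channels of a time. The fit held the 4 upper channels with a mean per time; the script was tested on simulated data. Arrays lie on slides of their own, so a slide block was not run.

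Deviations of same-numbered channels from their group means correlated at -0.119 over genes, so the numbers were not taken to pair samples beyond the dye. Members, lists and tests were chosen with earlier results of these data known. Named were the 12 largest rises and falls called with the same direction in both dyes, 6 genes in each direction of the flank difference, up to 4 called genes per list (otherwise the highest and lowest) and IAA5, SAUR19, SAUR63, NIA1, BT2, CCA1 and LHY; others are named after their values were seen. The number of arrays limits the precision. One gene that the rule names is not reported here.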

Additional observations from a re-analysis of the deposited data

Results flagged for a closer look

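The change from 10 to 30 min differed between the upper and the lower flank at 23 genes by the test of that difference in limma. Those named by the rule were IAA5 (-2.17, upper minus lower change, log2), AT5G66580 (-1.74), SAUR19 (-1.26), SAUR22 (-1.23), AT5G02760 (-1.20) and SAUR25 (-1.20), where the upper flank's change was the lower one, and AT1G78170 (1.19), BT2 (0.93), AT1G79160 (0.85) and NIA1 (0.69), where it was the higher one. MT1A (0.80, adjusted p = 0.08462) and AT3G19030 (0.71, adjusted p = 0.08266) did not pass. With 2 channels per time no group was large enough to look for a single sample far from the others.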

How the results depend on the processing

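No named value of either comparison changed direction among called genes under any alternative, and all 717 upper-flank calls that could be tested kept their direction in each. The count of calls was 535 to 1049 under other backgrounds, scalings, filters and fits, 1539 with the replicate block, and 311 to 4856 with 1 channel left out; with the numbers crossed in the block it was 2076. The lone channel then left at a time is assumed to vary like the other time's. Calls within the gene lists were 85, 145 with the crossed block and 61 to 193 with 1 channel left out. Genes at least 1.5-fold apart without overlap numbered 499, 749 with a normexp offset of 16, 1472 with processed signals and 424 to 912 with 1 channel left out. The 23 differences between flanks became 0 with median centring in place of loess, 6925 with the replicate block and 242 to 433 with 1 array left out. The causes were not tested. The sequence search planned for promoters was not run, nor was a list of ribosomal proteins. Dim probes may limit the smaller changes, which was not tested. Without a filter on them 571 of 20100 genes were called.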

Other observations

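Genes of methionine-derived glucosinolate synthesis and of sulfate uptake and activation, a list drawn up after APS4, BCAT4 and FMO GS-OX3 had been seen among the largest rises and therefore given no test, held 12 calls among 29 measured genes in the upper flank, all higher at 30 min (41.4%, against 1.71% of all genes). The 12 include APS4, which prompted the list, so the share partly follows from how the list was drawn. The median of the 29 was 0.42. MYB28, the factor that activates this pathway, stood at 6.97 and 6.98 at 10 min and at 7.66 and 7.51 at 30 min (0.61 ± 0.10). MAM1, a chain-elongation enzyme, rose from 9.37 and 9.33 to 10.05 and 10.25 (0.80 ± 0.11). CYP83A1, of the core pathway, rose from 10.30 and 10.22 to 10.96 and 10.98 (0.71 ± 0.09). IMD1, another chain-elongation enzyme, had 1 of its 30 min channels left out as an outlier spot and stood at 10.55 and 10.54, then at 11.34. The sulfotransferase genes SOT17 (0.54) and SOT18 (0.68) and the side-chain gene AOP2 (0.69) were also called. In the lower flank 12 of the 29 were called higher too, beside 994 of all 17962 genes.

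All 3 measured genes of the KISS ME DEADLY F-box family fell, beside 2.28% of all genes called lower. KMD1 fell by 2.02, KMD3 by 1.25 and KMD4 by 1.17. The family was also looked up after KMD1 had been seen, and KMD4 is counted in the list of dark and sugar starvation as well. KMD3 went from 10.96 and 10.94 to 9.62 and 9.78.

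At 10 min replicate 1 was below replicate 2 by at least 0.8 (log2) at 19 genes and above it at 12. At 30 min it was below at 23 and above at 7.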
